A study of Mus musculus with 8 samples.

Results

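Mature miRNAs with a registry number of 3000 or above were examined in small RNA libraries of mouse splenic CD8+ T cells. The deposited count table held 1978 mature names, of which 991 carried a number of 3000 or more. The members described here were the 62 of those 991 names whose counts, with rows of one name summed, reached a total of 40 over the 8 libraries. They were therefore chosen by their name and their total count, and their overall abundance is a description. CD8+ cells were enriched with magnetic beads and sorted by flow cytometry on CD8, CD4, CD44 and CD122 into subsets labelled TN and MP, from mice labelled WT and mCre, with 2 libraries in each of the groups WT TN, WT MP, mCre TN and mCre MP. The series' design text writes VM where the sample titles write MP. The series title names a miR-29 Cre model, but the allele that mCre deletes, the promoter of the Cre and the age of the mice of each sample were not given in the sources used here, and the extraction protocol speaks of spleens of adults or neonates. Nothing in the labels states that replicates 1 and 2 came from separate mice, so every p-value below rests on library-to-library spread that could be purely technical.

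A miRNA is cut from a hairpin RNA, usually by the nuclease Drosha in the nucleus and then by Dicer in the cytoplasm, and is loaded onto an Argonaute protein, where its seed pairs with messenger RNAs. Registry numbers are given in order of submission, so the high numbers belong mostly to entries found by deep sequencing rather than by cloning. Some such entries lie inside small nucleolar RNA genes or at the end of a short intron, where splicing in place of Drosha can make a hairpin end (a mirtron). Few of them have a described role in T cells.

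The mature sequences of the members with the highest mean level are shown because they carry most of the signal and because their sequences set them apart from one another. They are taken from RefSeq for GRCm38.p6, written 5′ to 3′ with the seed, bases 2 to 8, in capitals. A sequence was found for 55 of the 62 members; miR-5099, miR-3079-5p, miR-6952-3p, miR-6957-5p, miR-7212-5p, miR-5127 and miR-6539 are named only.
miR-3968: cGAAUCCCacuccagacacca
miR-3535: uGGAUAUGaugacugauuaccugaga
miR-3963: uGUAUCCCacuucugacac
miR-8103: uCUCCUGUucucuguucuccc
miR-3068-3p: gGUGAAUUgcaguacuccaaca
miR-5121: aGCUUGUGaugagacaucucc
miR-3068-5p: uUGGAGUUcaugcaaguucuaacc
miR-3474: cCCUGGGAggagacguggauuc
miR-7015-3p: uCUCACUGuccucugcacuag
miR-5114: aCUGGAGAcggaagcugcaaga
miR-6516-5p: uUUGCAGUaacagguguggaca

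The 55 sequences had 54 distinct seeds, and none of these seeds was shared with any of the 265 lower-numbered names that had a sequence and a total of 40 or more. The members are thus mostly singletons by seed. The shared seed belonged to miR-3473b and miR-3473e, shown here because they also have the same first 18 bases.
miR-3473b: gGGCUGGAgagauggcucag
miR-3473e: gGGCUGGAgagauggcucgua
Reads of this pair cannot be assigned with certainty where they stop inside the shared stretch, and 7 of the 8 values of each were not whole numbers in the table. In the list above, miR-3968 and miR-3963 had identical bases at 15 of 19 compared positions, counted from the 5′ end, although their seeds differ. The letters GAAUCCCA, searched on the given strand of the mature RNAs, were in 3 of 1679 names with a sequence (0.179%): miR-3968, miR-5100 and the lower-numbered miR-191-5p.

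Library totals ranged from 1936597 to 5230975 counts, and the normalisation factors ranged from 0.839 to 1.23. Levels are given as CPM, the usual measure of counts scaled to one common library total, here after multiplying each total by its factor; mature miRNAs have similar lengths, so no division by length was made. The miRNAs fixed as lymphocyte markers summed to between 54376 and 185841 CPM in every library, while the myeloid pair miR-223-3p and miR-223-5p stayed between 1.59 and 12.2 CPM and the neural pair between 0 and 5.55 CPM. The epithelial list summed to 719 to 2706 CPM. A library that stands apart was looked for with miR-29a-3p, the family named in the series title. In MP cells miR-29a-3p was at 3105 and 11656 CPM in WT and at 833 and 1498 CPM in mCre. In TN cells it was at 2752 CPM in WT replicate 1 against 1409 CPM in mCre replicate 1, but at 802 CPM in the library labelled WT TN 2 against 15390 CPM in the library labelled mCre TN 2. The replicate 2 TN libraries thus go against the order seen in the other libraries, and results that rest on them are given with and without them. Whether these libraries carry each other's genotype label was not tested and cannot be told from the files. All values below use the labels as given. An exchange would alter the values within each genotype, those of mCre against WT in TN cells and those of the interaction. Through the genotype term it could also alter the values of MP against TN over both genotypes. Through the spread shared by all groups it could alter the p-values of mCre against WT in MP cells.

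The late-numbered entries were mostly absent or rare. Of the 991 names, 659 had no count in any library and 62 (6.26%) reached the total of 40, whereas 339 of the other 987 names (34.3%) did. Among names numbered from 3000 to below 4000, 22 of 158 reached 40 counts, against 10 of 69 names from 5000 to below 6000, 12 of 322 from 6000 to below 7000 and 18 of 442 numbered 7000 and above. The table held no name from 4000 to below 5000. The share that reached the minimum was thus 13.9% and 14.5% below 6000 and 3.73% and 4.07% above.

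Members also had low totals. Their median total was 107.5 counts, against 745 counts for the other 339 names with 40 or more. Totals were below 100 counts for 28 members, from 100 to below 1000 for 26 and at least 1000 for 8 (12.9%), while 47.8% of the other names had at least 1000. Just inside the minimum were miR-3473e with 40.91 counts and miR-7084-5p, miR-6539, miR-3103-3p and miR-3060-3p with 41 each. Just outside it were miR-7219-3p with 39, miR-6900-3p with 38 and miR-6240 with 37. Counts were present in all 8 libraries for 47 of the 62 members.

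Most of the signal came from 4 members. miR-5099, miR-3968, miR-3535 and miR-3963 held 93.8% of the 236368 counts of all members, and miR-5099 alone held 43.4%. By total count over all names, miR-5099 ranked 27, miR-3968 38, miR-3535 48 and miR-3963 64. The next member, miR-8103, ranked 141. In total count a wide gap separated the fourth member (25492 counts) from the fifth (1992 counts).

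All members together took 0.970% ± 0.447 (SD, n = 8) of a library's counts. The share was 1.05% and 1.03% in WT TN, 0.938% and 0.616% in WT MP, 0.952% and 0.277% in mCre TN and 1.85% and 1.05% in mCre MP. The library labelled mCre TN 2 was the lowest and mCre MP 1 the highest, and the Wilson 95% intervals, which cover counting error only, were 0.272% to 0.284% and 1.83% to 1.87%. TN and MP libraries overlapped, and so did WT and mCre libraries. Without the 4 most abundant members the share lay between 0.0456% and 0.0858%, again lowest in the library labelled mCre TN 2 and highest in mCre MP 1.

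**Figure D1:**
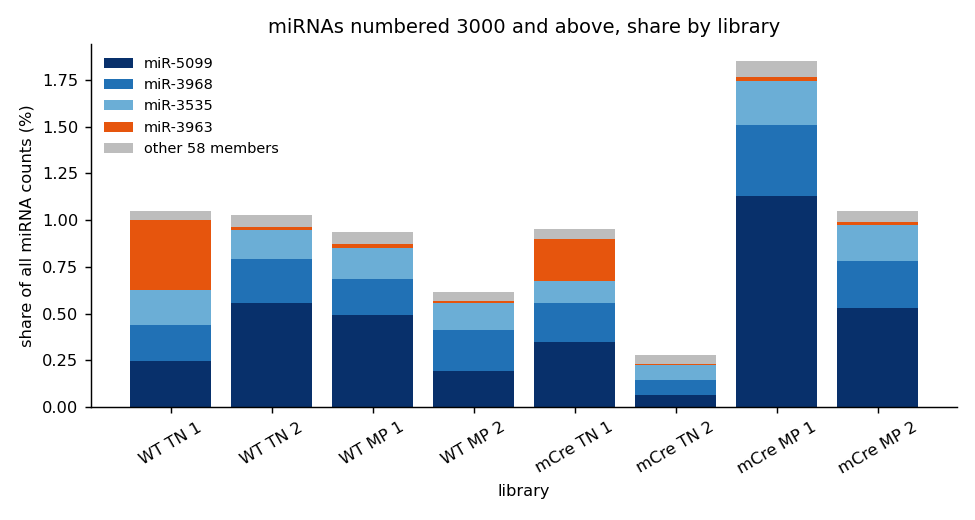
Share of each library's miRNA counts (%, linear axis from 0) taken by miRNAs numbered 3000 and above, as stacked bars for miR-5099, miR-3968, miR-3535, miR-3963 and the other 58 members. The total runs from 0.277% in mCre TN 2 to 1.85% in mCre MP 1, and miR-3963 is a visible part of WT TN 1 and mCre TN 1 only.

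miR-5099 was the most abundant member. Its hairpin lies on chromosome 12 (GRCm38, 36816205 to 36816278, plus strand), outside annotated genes. It was at 1999 and 6061 CPM in WT TN, 4398 and 2055 CPM in WT MP, 3033 and 633 CPM in mCre TN and 12803 and 6314 CPM in mCre MP. The 2 mCre MP libraries were the highest of all 8, and the library labelled mCre TN 2 was 20.2-fold below mCre MP 1. Means were 3226 ± 1657 CPM in WT MP and 9558 ± 4588 CPM in mCre MP (SD, n = 2 each).

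miR-3968, whose hairpin lies on chromosome 11 (115447961 to 115448060, minus strand) opposite Trim80, varied less. It was at 1544 and 2597 CPM in WT TN, 1711 and 2343 CPM in WT MP, 1783 and 810 CPM in mCre TN and 4285 and 3012 CPM in mCre MP. As for miR-5099, mCre MP 1 and the library labelled mCre TN 2 were the ends of the range, 5.29-fold apart.

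miR-3535 had the closest replicates of the abundant members. It lies in the small nucleolar RNA gene Gm24148 within Ncl, the gene of the nucleolar protein nucleolin (chromosome 1, 86351981 to 86352127, minus strand). It was at 1540 and 1677 CPM in WT TN, 1493 and 1526 CPM in WT MP, 1027 and 857 CPM in mCre TN and 2671 and 2324 CPM in mCre MP. The mCre MP libraries were above and the mCre TN libraries below all 4 WT libraries. The table counts reads of the mature sequence and does not say whether they were cut from the small nucleolar RNA.

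miR-3963 divided the libraries in another way. Its hairpin lies on chromosome 3 (151023792 to 151023862, minus strand), outside annotated genes. It was at 3031 and 168 CPM in WT TN, 145 and 155 CPM in WT MP, 1952 and 49.2 CPM in mCre TN and 248 and 160 CPM in mCre MP. Both replicate 1 TN libraries stood far above the rest, the lower of them 7.88-fold above the highest of the other 6 libraries, while the replicate 2 TN libraries were in or below the MP range. Of the 382 miRNAs tested, 13 were highest in both replicate 1 TN libraries, and 2 of these by 5-fold or more: miR-3963 and the lower-numbered miR-450a-5p, which is named after its values were seen and was 5.38-fold above the others. Since the replicate 2 TN libraries also carry the miR-29a-3p levels given above, the TN level of miR-3963 rests on which TN libraries are used.

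The other abundant members had far lower levels. miR-8103, inside an intron of Osbpl7 on chromosome 11, was at 29.2 and 195 CPM in WT TN, 50.3 and 46.6 CPM in WT MP, 40.4 and 53.0 CPM in mCre TN and 258 and 116 CPM in mCre MP. Its high libraries were mCre MP 1 and the library labelled WT TN 2. miR-3474, outside annotated genes on chromosome 2, had the same high libraries, at 113 and 73.8 CPM, and its lowest value, 1.04 CPM, was in the library labelled mCre TN 2. miR-5121 overlaps Snord33, a small nucleolar RNA gene in the ribosomal protein gene Rpl13a. It was at 46.1 and 18.0 CPM in WT TN, 141 and 48.0 CPM in WT MP, 66.1 and 27.7 CPM in mCre TN and 13.8 and 33.9 CPM in mCre MP. For miR-5121 mCre MP 1 was thus the lowest library and the library labelled WT TN 2 the next lowest, the opposite order to miR-8103.

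**Figure D2:**
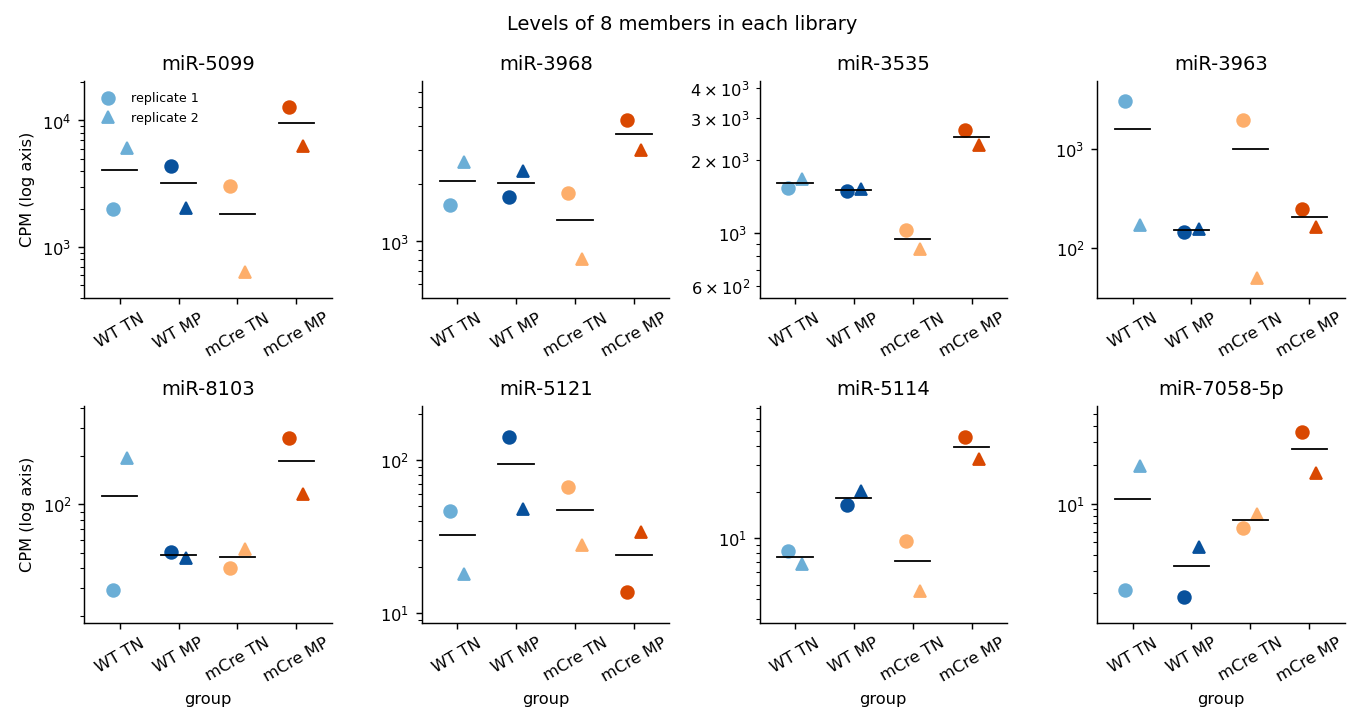
Level of 8 members in each library (CPM, log axis, 1 panel per member), with circles for replicate 1, triangles for replicate 2 and a black line at the mean of each group of 2 libraries. miR-5114 is higher in all 4 MP libraries than in any TN library, and miR-3963 is at 1952 CPM or more in the replicate 1 TN libraries and at 248 CPM or less elsewhere.

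The hairpins could be placed in the genome for 58 members, by RefSeq names and the GENCODE annotation of GRCm38. At or within 2 bases of the acceptor end of an intron of the same strand were 15 members (25.9%), and 1 more, miR-7058-5p, has a hairpin that fills an intron of Lat, the gene of a T-cell receptor signalling adaptor (chromosome 7, 126367971 to 126368045, minus strand). None of the 275 placed lower-numbered miRNAs had a hairpin at 1 intron end, and 5 (1.82%) filled an intron. No member lay only at a donor end. The 16 members came from 15 hairpins. Among the host genes were Grap2, which encodes another adaptor of T-cell receptor signalling, and Ltb, which encodes lymphotoxin beta. Ddx5, an RNA helicase gene, and Smap2, host of the most abundant of the 16 members, miR-7015-3p, were hosts too. The remaining hosts were Klf7, Dazap1, Arrb2, Scamp4, Abca2, Syvn1, Map4k2, BC017158, Pom121 and Elof1. Totals of the 16 members were low, from 41 to 606 counts with a median of 101.5.

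Introns usually end in the letters AG. Of 9 members of the 3p arm whose hairpin ends at an intron acceptor, 6 ended in the letters AG, as miR-7015-3p does in the list above. None of the other 5 members of the 3p arm with a sequence ended in AG, and 6 of 120 lower-numbered 3p names did. The 9 were picked for a hairpin end within 2 bases of an intron's acceptor end. Their AG endings are thus largely set by that choice and are a description.

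Genes annotated as a small RNA type other than miRNA were searched, but nuclear transfer RNA genes were not among the types. Overlap with transfer RNA genes of the nucleus, also for miR-3968, miR-3963 and miR-5100, was thus not tested. Genes of the searched types overlapped 6 members (10.3%) and 10 of 275 lower-numbered miRNAs (3.64%). Besides miR-3535 and miR-5121 these were miR-6516-5p, in the small Cajal body RNA gene Gm26083 within Snhg20 on chromosome 11, and miR-3084-5p, in Gm23658 and Snora19 on chromosome 19. The others were miR-3068-3p and miR-3068-5p on chromosome 12. For both of them the overlapping gene is Mir3068 itself, which is annotated as small nucleolar RNA, and not a separate gene. Exon overlap was counted only for names in none of the classes above. Left out, for one, was miR-6912-5p, at an intron end, whose sequence was also found in a Scamp4 transcript annotated as protein coding. The percentages that follow therefore do not cover all exon overlaps. The mature parts of 8 remaining members (13.8% of those placed) overlapped an exon of any annotated transcript of a gene, against 26.9% of the lower-numbered miRNAs. Such an exon can be a retained intron, and this class is called members in exons below. It includes miR-5114 in Scd2, a fatty acid desaturase gene (chromosome 19, 44303171 to 44303231, plus strand), and miR-7658-5p in Plekhn1. It also includes miR-5132-5p in Irak1, a kinase gene of Toll-like and interleukin-1 receptor signalling. The exact sequence of miR-5132-5p was found only in Irak1 transcripts annotated as retained intron. The hairpins of a further 16 members lay inside introns and those of 12 outside genes on their strand. For 12 members, miR-3968 among them, a gene was annotated on the opposite strand of the hairpin; strand handling of the counting was not given in the sources used here.

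Other features also differed from those of lower-numbered miRNAs. No arm was given in 27 names (43.5%), against 6.49% of the other names with 40 or more counts. The median GC content of the mature sequence was 54.5% against 47.8%, and 14 of 55 members (25.5%) had 60% or more against 15.5%. A length of 21 to 23 bases, the usual product of Dicer, was found for 72.7% of members and 91.3% of the others; member lengths ran from 19 to 26 bases, with miR-3963 among the shortest and miR-3535 the longest. The exact mature sequence was searched in all annotated transcripts except those of type miRNA. It was in none of them for 33 of 55 members, in transcripts of 1 gene for 15, of 2 to 9 genes for 5 and of 10 or more for 2. Those 2 were miR-3470b, found in transcripts of 546 genes, and miR-3473b, found in those of 343. Reads of these names could come from many places. For both arms of miR-3068 the genes counted include Mir3068 itself, because it is annotated as small nucleolar RNA. Values more than 0.011 from a whole number, which a table can hold where reads are divided between names, occurred in 7 members and in 44.0% of the other names. miR-3074-5p and miR-3084-5p each stood in 2 rows of the table, for 2 hairpins.

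Both arms of a hairpin were members in 3 cases. The 3p arm of miR-3068 held 54.9% of the pair's counts and between 41.9% and 68.1% by library. For miR-6957, in Grap2, the 3p arm held 71.3% and was the higher arm in 8 of 8 libraries, between 52.8% and 87.5%. For miR-7667 it held 25.7%, ranging from 8.70% to 100% where the library labelled mCre TN 2 had 10 counts of the 3p and none of the 5p arm, which allows up to 1.03 CPM of the unscaled library. Some members came mainly from 1 library: miR-3103-3p had 68.3% of its 41 counts in mCre MP 1, miR-3964 52.0% in WT TN 1 and miR-3473g 50.0% in mCre MP 1.

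A pair of libraries held the highest value of most tested members. mCre MP 1 or the library labelled WT TN 2 was the highest library for 33 of 55 tested members (60%), and for 82 of the 327 other tested miRNAs (25.1%). Conversely, one of those libraries was the lowest for 14 members (25.5%) and for 173 others (52.9%). These are also the libraries with the smallest totals, 2140365 and 1936597 counts, the lowest levels of miR-29a-3p and the lowest lymphocyte marker sums (61823 and 54376 CPM). The erythroid list summed to 157 CPM in mCre MP 1 and 101 CPM in the library labelled WT TN 2, against 107 CPM in mCre MP 2 and 37.9 to 80.4 CPM elsewhere, and the liver miRNA miR-122-5p was at 38.1 and 32.1 CPM in the first pair and at 5.199 to 21.03 CPM in the other 6. Other lists were not raised in this pair. The endothelial pair miR-126a-3p and miR-126a-5p summed to 24.9 CPM in mCre MP 1 and 15.8 CPM in the library labelled WT TN 2, against 19.4 to 58.4 CPM elsewhere. In the same order, the myeloid (1.59 and 7.89 CPM), neural (0 and 3.94 CPM), muscle (5.83 and 3.94 CPM) and epithelial sums (1685 and 1238 CPM) lay within or below the range elsewhere. The part of all these values in the pattern was not tested. The members at intron acceptor ends summed to 175 CPM in the library labelled WT TN 2 and 200 CPM in mCre MP 1, and to between 55.2 and 123 CPM elsewhere. Members inside introns, led by miR-8103, showed the same order, with 284 and 374 CPM there and between 72.8 and 205 CPM elsewhere. Members in small RNA genes other than miR-3535, with both arms of miR-3068 among them, went the other way in their sum. They summed to 78.9 and 79.4 CPM in those libraries and to between 143 and 297 CPM elsewhere. miR-3535 itself, with 39514 of the 44069 counts of this class, did not go that way. It was at 1677 CPM in the library labelled WT TN 2 and 2671 CPM in mCre MP 1, its highest library, against 857 to 2324 CPM elsewhere. The high-GC members (60% or more) summed to 131 and 238 CPM in those libraries and to between 47.1 and 148 CPM in the others, so these ranges overlapped. Members in exons did not have this order: they summed to 46.2 CPM in the library labelled WT TN 2, within the range of the TN libraries (34.3 to 47.1 CPM) and below both WT MP libraries (53.2 and 66.8 CPM), although mCre MP 1 was their highest library at 118 CPM.

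**Figure D3:**
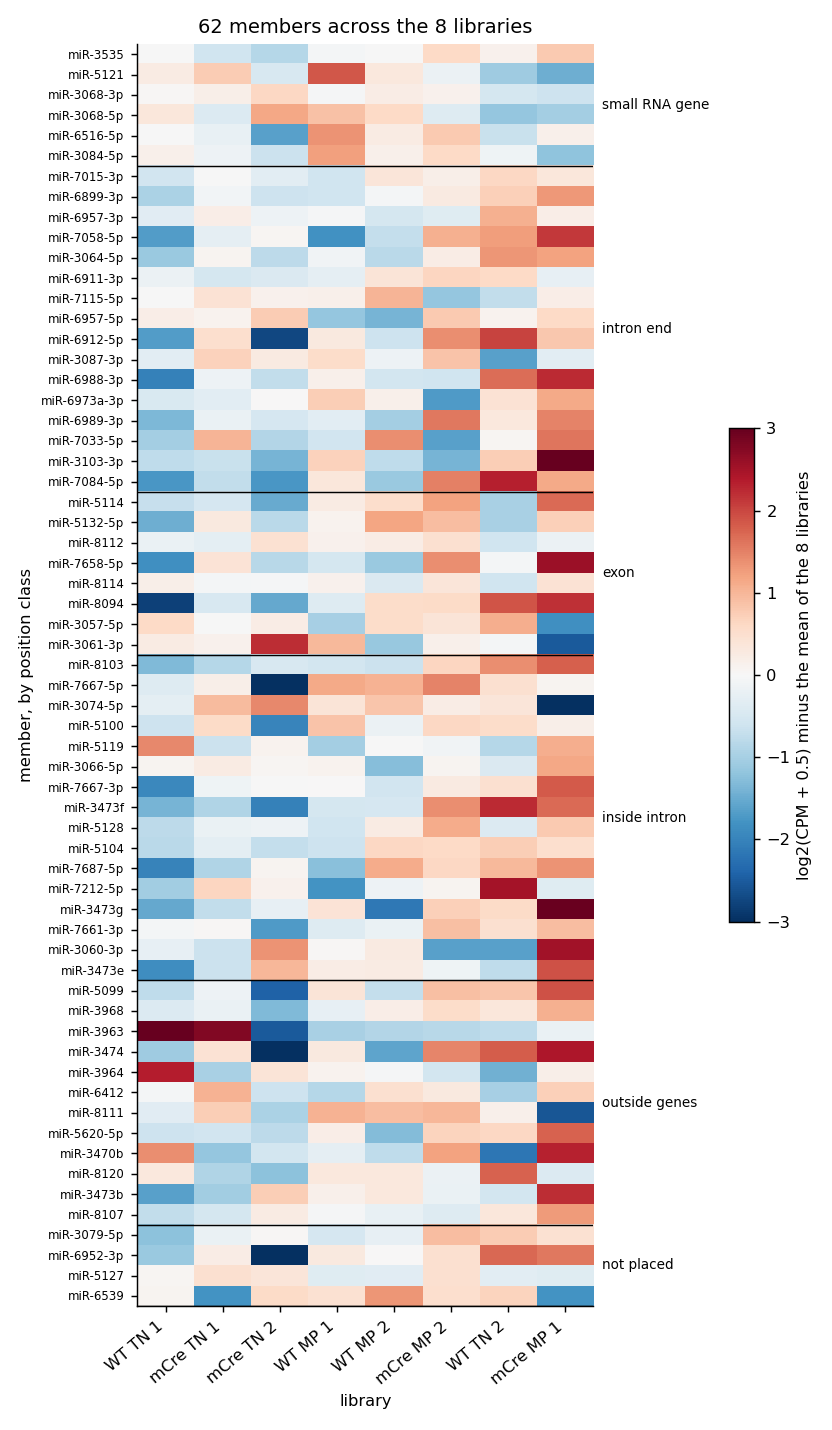
Level of each of the 62 members (rows, grouped by position class) in each library (columns) as log2(CPM + 0.5) minus the member's mean over the 8 libraries; red is above and blue below that mean. The last columns, WT TN 2 and mCre MP 1, are red for most members at intron ends and inside introns and blue for most members in small RNA genes; columns are ordered to place these libraries side by side.

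Replicates differed widely. The median absolute difference between replicates on the log2 scale (CPM + 0.5) was 1.33 for members and 1.24 for other tested miRNAs in WT TN, 0.66 and 0.37 in WT MP, 0.75 and 0.76 in mCre TN and 0.88 and 0.62 in mCre MP. In WT TN 37 of 55 members were lower in replicate 1 than in the library labelled WT TN 2, with a median difference of -0.87, while the other miRNAs had a median of 0.40.

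The subset comparison asks how miRNAs differ between the MP and TN subsets. Group comparisons used edgeR's quasi-likelihood test on 382 miRNAs that passed a filter on low counts, 55 of them members, with Benjamini-Hochberg adjustment over the 382. The 7 members that did not pass the filter were miR-3473g, miR-3084-5p, miR-5127, miR-8107, miR-3103-3p, miR-6539 and miR-3473e. A rare miRNA passes the filter more easily if it is high in 1 group, so counts and medians over the tested members are descriptions. Levels here are shares of the miRNA counts of sorted cells, and fewer cells with a miRNA cannot be told apart from less of it per cell.

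In MP against TN over both genotypes no member passed the test (edgeR, 0 of 55; 9 of 382 miRNAs, 2.36%, passed), 4 members had an unadjusted p under 0.05, and 2 members were called by DESeq2 (7.33% of all). The member with the smallest p was miR-5114, from the exon of Scd2. It was at 8.30 and 6.76 CPM in WT TN, 16.5 and 20.2 CPM in WT MP, 9.64 and 4.51 CPM in mCre TN and 45.5 and 32.7 CPM in mCre MP. All 4 MP libraries were above all 4 TN libraries. Its mean was 28.7 ± 13.2 CPM in MP and 7.30 ± 2.20 CPM in TN (SD, n = 4 each), a log2 fold change of 1.87 ± 0.49 (SE) with an edgeR adjusted p of 0.103. DESeq2 gave 1.79 and an adjusted p of 0.0118, and over all 15 alternatives the adjusted p ran from 0.0118 to 0.392 with log2 fold changes from 1.40 to 2.01.

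miR-6516-5p, from the small Cajal body RNA gene in Snhg20, was the other member whose groups did not overlap. It was at 12.9 and 7.89 CPM in WT TN, 33.8 and 15.3 CPM in WT MP, 10.96 and 3.81 CPM in mCre TN and 14.3 and 22.6 CPM in mCre MP. The lowest MP library, mCre MP 1, was thus only just above the highest TN library. The log2 fold change was 1.27 ± 0.53 (edgeR adjusted p = 0.352). Of the 55 tested members, 2 were higher in all MP than in all TN libraries and none lower, beside 6.81% and 4.45% of all tested miRNAs.

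miR-5132-5p and miR-3963 completed the 4 smallest p-values. miR-5132-5p was at 2.68, 3.94, 10.1 and 4.51 CPM in the TN libraries and 8.92, 19.4, 13.8 and 15.97 CPM in the MP libraries, with mCre TN 1 inside the MP range. Its log2 fold change was 1.53 ± 0.59 (edgeR adjusted p = 0.314). For miR-3963 the log2 fold change was -2.86 ± 1.15 (edgeR adjusted p = 0.316), with TN means of 1300 ± 1445 CPM and MP means of 177 ± 47.7 CPM (SD, n = 4 each). Without the libraries labelled WT TN 2 and mCre TN 2, an alternative chosen after seeing the data, miR-3963 was lower in MP by a log2 fold change of -3.98 with an edgeR adjusted p of 3.0e-05, where 11.3% of 433 miRNAs passed and each TN group was 1 library assumed to vary like the MP groups; over the 15 alternatives its adjusted p ran from 3.0e-05 to 0.914. With no filter on low counts it passed as well (-2.95, edgeR adjusted p = 5.2e-05), where 2.17% of 877 miRNAs did, and DESeq2 called it with -2.89 (adjusted p = 0.0371).

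Most tested members had higher fitted levels in MP. The median log2 fold change was 0.52 over members and -0.04 over all 382 miRNAs; 43 members had a positive and 12 a negative value, against 146 and 181 of the other tested ones. The distance of the members' median from that of all miRNAs was 0.56, and it was 0.58 with RLE and 0.57 with total count scaling, which moved the median of all miRNAs to -0.15 and -0.23. The members' median was 0.06 without the library labelled mCre TN 2 and 0.11 without mCre MP 1. By position, the median was 0.65 for the 8 members in exons (6 positive), 0.30 for the 15 tested members at intron acceptor ends (13 positive), 0.59 for the 14 tested members inside introns (11 positive) and 0.08 for the 4 tested members in small RNA genes other than miR-3535 (2 positive). Exon members summed to 43.4 ± 6.13 CPM in TN and 82.7 ± 28.7 CPM in MP (SD, n = 4 each), and their lowest MP library, 53.2 CPM, was above their highest TN library, 47.1 CPM. Without miR-5114 the sums of the other 7 exon members overlapped, from 26.0 to 42.6 CPM in TN and from 36.7 to 72.6 CPM in MP.

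Within WT, no member passed in MP against TN (edgeR, 0 of 55; 0.0% of all miRNAs passed; 1 member at an unadjusted p under 0.05; DESeq2 0 members). The smallest p-values belonged to miR-5132-5p, with a log2 fold change of 2.10 ± 0.84 (edgeR adjusted p = 0.509), miR-6957-5p, from the intron of Grap2, with -1.73 ± 0.84 (0.624), and miR-3963, with -3.42 ± 1.67 (0.624). miR-6957-5p was at 4.28 and 3.94 CPM in WT TN and 1.35 and 1.09 CPM in WT MP. Groups of 2 did not overlap for 13 members higher and 5 lower in MP, beside 26.2% and 13.4% of all miRNAs. The members' median was -0.17 and that of all miRNAs 0.05, with 24 members positive and 31 negative. Without the library labelled WT TN 2 the members' median was 0.69, so its sign rests on that library. Without both replicate 2 TN libraries it was 0.67, and miR-3963 passed (log2 fold change -4.46, edgeR adjusted p = 8.0e-05, over the alternatives up to 1.0; 3.23% of miRNAs passed). The WT TN arm is then the single library WT TN 1, at 3031 CPM, and is assumed to vary like the MP groups; without WT TN 1 the log2 fold change was -0.14.

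Within mCre, no member passed in MP against TN (edgeR, 0 of 55; 0.0% of all; 6 members at an unadjusted p under 0.05; DESeq2 2 members). The median log2 fold change was 1.12 over members, with 43 positive and 12 negative, and -0.18 over all miRNAs. MP libraries were above TN libraries without overlap for 30 members and below for 3, beside 29.6% and 35.6% of all miRNAs. The smallest p-values were those of miR-5114 with a log2 fold change of 2.45 ± 0.66 (edgeR adjusted p = 0.171), miR-3535 with 1.41 ± 0.48 (0.203) and miR-5099 with 2.38 ± 0.91 (0.218). miR-3968 had 1.49 ± 0.60 (edgeR adjusted p = 0.229), so 3 of the 4 most abundant members were among those with an unadjusted p under 0.05. DESeq2, with 11.5% of all miRNAs called, called miR-5114 (2.47, adjusted p = 0.0144, over the alternatives up to 0.615) and miR-5099 (2.43, adjusted p = 0.0421, over the alternatives up to 0.615). Over the 15 alternatives the log2 fold change of miR-5099 ran from 1.46 to 3.86, with 1.47 without the library labelled mCre TN 2, and that of miR-3968 from 0.86 to 2.11, with 0.87 without that library. miR-3963 had -2.30 ± 1.59 (edgeR adjusted p = 0.385), but its direction turned to 1.99 without mCre TN 1; without both replicate 2 TN libraries it was -3.44 (edgeR adjusted p = 0.00139, over the alternatives up to 0.732), where 6.93% of miRNAs passed. That value sets the MP libraries against the single library mCre TN 1, at 1952 CPM, assumed to vary like the MP groups, and leaves out the library labelled mCre TN 2, at 49.2 CPM. Without the library labelled WT TN 1, whose removal changes the shared spread but no mCre library, 3 members passed in edgeR: miR-3473f, miR-5114 and miR-8103, where 12.9% of miRNAs passed. Without the library labelled WT TN 2 miR-8103 passed, where 9.38% did.

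**Figure D4:**
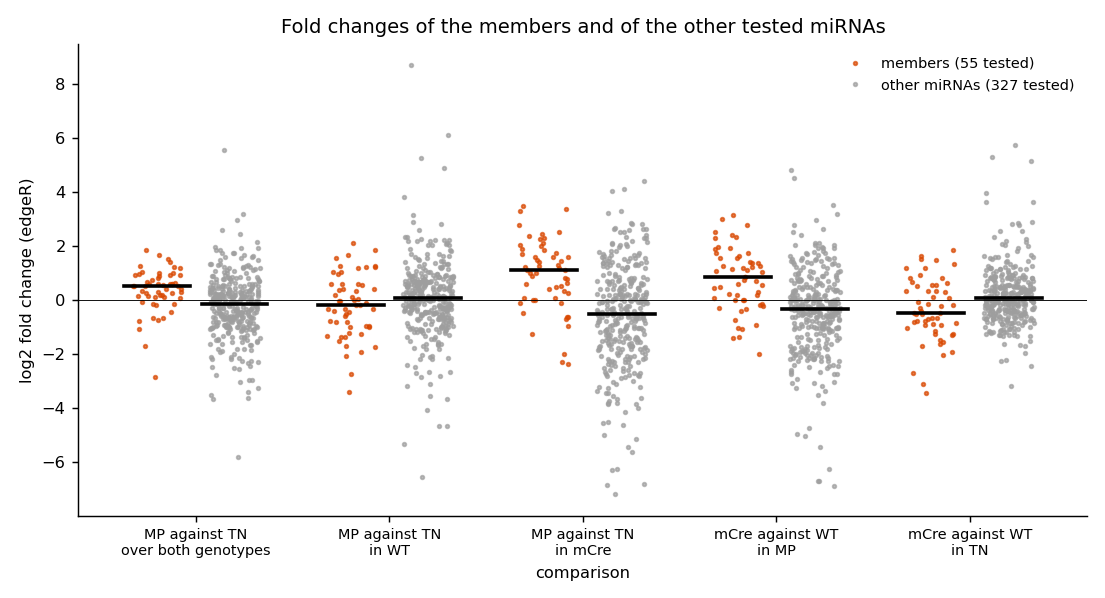
log2 fold change by edgeR of each of the 55 tested members (orange) and of the 327 other tested miRNAs (grey) in 5 comparisons, with black lines at the medians. The members' median is above that of the others in MP against TN within mCre (1.12 against -0.51) and in mCre against WT within MP (0.84 against -0.35), and below it in mCre against WT within TN (-0.48 against 0.06).

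The genotype comparison asks how mCre differs from WT. In MP cells no member passed (edgeR, 0 of 55; 0.0% of all; 5 members at an unadjusted p under 0.05; DESeq2 0 members). The smallest p-values were those of miR-7658-5p, from the exon of Plekhn1, at 2.70 and 1.64 CPM in WT MP and 27.0 and 11.7 CPM in mCre MP, of miR-6957-5p, at 1.35 and 1.09 against 5.83 and 6.62 CPM, and of miR-7058-5p, from the intron of Lat, at 1.89 and 4.63 against 36.0 and 17.1 CPM. All 3 were higher in both mCre MP libraries. Their log2 fold changes were 3.13 ± 1.06, 2.32 ± 0.85 and 3.01 ± 1.13, each with an edgeR adjusted p of 0.411.

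Most tested members had higher fitted levels in mCre MP than in WT MP. The median was 0.84 over members and -0.23 over all miRNAs, with 40 members positive and 15 negative, and it was 0.53 without mCre MP 1. Without overlap, 25 members were higher and 4 lower in mCre, beside 27.2% and 37.4% of all miRNAs. miR-5121 was among the lower ones, at a log2 fold change of -1.98 ± 0.83 (edgeR adjusted p = 0.411). Without both replicate 2 TN libraries, which changes the estimate of the spread but no MP library, 63 of 433 miRNAs passed (14.5%) and with them 6 of 61 members in edgeR: miR-7658-5p, miR-7058-5p, miR-3474, miR-8103 and miR-5099 were higher in mCre, with log2 fold changes of 3.03, 2.94, 2.29, 1.85 and 1.46, and miR-5121 was lower, with -2.01. Their edgeR adjusted p-values there ran from 0.0189 to 0.0450, and reached 0.933 to 0.934 in other alternatives.

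In TN cells no member passed (edgeR, 0 of 55; 0.0% of all; 1 member at an unadjusted p under 0.05; DESeq2 0 members). miR-8120, outside annotated genes on chromosome 3, was at 2.95 and 9.01 CPM in WT TN and 1.00 and 0.69 CPM in mCre TN, a log2 fold change of -2.71 ± 1.00 (edgeR adjusted p = 0.957). miR-3473f, inside an intron of Bcl2, gave -3.11 ± 1.36. miR-7084-5p, at an intron end of Elof1 and also in an Elof1 transcript annotated as protein coding, gave -3.46 ± 1.97. Both had an edgeR adjusted p of 0.957. Each of the latter rested on the library labelled WT TN 2, with 15.8 and 7.89 CPM there against 0.80 CPM and no count in WT TN 1. Without that library the log2 fold changes were 0.20 and 3.29. The members' median was -0.48 and that of all miRNAs 0.02. It was 0.44 without the library labelled WT TN 2 and 0.57 without both replicate 2 TN libraries. Without overlap, 6 members were higher and 4 lower in mCre TN, beside 15.7% and 6.81% of all miRNAs.

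The difference between the genotype effects in MP and in TN was tested as an interaction. No member passed (edgeR, 0 of 55; 0.0% of all; 4 members at an unadjusted p under 0.05), while 1 member was called with DESeq2, miR-3473f (4.19% of all miRNAs). The smallest p-values were those of miR-3473f, with 5.42 ± 1.88 on the log2 scale (edgeR adjusted p = 0.301), miR-8103 with 3.20 ± 1.21 (0.301) and miR-3470b with 4.69 ± 2.01 (0.350). miR-3473f was at 0.80 and 15.8 CPM in WT TN, 1.89 and 1.91 CPM in WT MP, 1.33 and 0.35 CPM in mCre TN and 10.6 and 8.57 CPM in mCre MP, so its largest value was in the library labelled WT TN 2. miR-3470b was at 5.36 and 0.00 CPM in WT TN, 1.35 and 0.82 CPM in WT MP, 0.50 and 1.04 CPM in mCre TN and 10.6 and 4.67 CPM in mCre MP. Its 8 values come from 66 counts in all. Without the library labelled WT TN 1, 3 members passed in edgeR, where 15.6% of miRNAs did: miR-3473f with 6.22, miR-7058-5p with 4.31 and miR-8103 with 3.89, with adjusted p-values from 0.0221 to 0.0342 there and up to 0.947 in other alternatives. The WT TN arm is then only the library labelled WT TN 2, at 15.8, 19.7 and 195 CPM for these members, and is assumed to vary like the other groups. Without that library in its turn the values were 2.14, 1.29 and 1.30, and without both replicate 2 TN libraries 1.56, 1.37 and 1.40. For miR-3470b the direction turned, to -1.65, without WT TN 1. The members' median was 1.17 and that of all miRNAs -0.22. Without both replicate 2 TN libraries the members' median was 0.04.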

How the data were processed

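Small RNA reads of 8 libraries had been counted per mature miRNA and precursor by the authors before deposit, against mm10 per the submitters' processing notes; no aligner, counter or miRNA annotation is given in the sources used here. The deposited values are estimated counts, mostly whole numbers with some fractions, and are not normalized. How the fractions arose is not given in those sources. Rows of one name were summed over 2128 rows and rounded. edgeR 4.0.16 (R 4.3.3) fitted all miRNAs that passed filterByExpr (minimum count 10, minimum total 15) with TMM factors: an additive model of subset and genotype for MP against TN over both genotypes, and a fit of the 4 groups for the other contrasts. The threshold was an adjusted p of 0.05 over all tested miRNAs, and the code was tested on simulated data. DESeq2 1.42.0, RLE or total count scaling, no filter, the largest row of each name, a replicate block and leaving out libraries were the alternatives.

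Members and lists were chosen with earlier results of these data known. Named members are the 12 with the highest mean CPM, the 3 with the smallest p in each comparison, those with 50% or more of their counts in 1 library, those in several rows, those at the minimum of 40 counts and hairpins with both arms. Named outside that rule, after their values were seen, were members without a sequence, members not tested, members called under an alternative, miR-3473b, miR-3473e, miR-3968's match miR-5100, miR-191-5p and miR-450a-5p. Library totals of 1936597 to 5230975 counts set the precision: 3 counts, the limit that a count of 0 allows, are 0.574 to 1.55 CPM.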

Additional observations from a re-analysis of the deposited data

Results flagged for a closer look

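In sets of 4 libraries (TN or MP) of the 12 members with the highest mean level, the highest or lowest library stood apart by Dixon's test at its 95% critical value in 2 of 24 sets; chance gives about 1 in 20. miR-3963 was at 248 CPM in mCre MP 1, with 0.852 of the MP range between it and the next MP library. miR-8103 was at 195 CPM in the library labelled WT TN 2, with 0.856 of the TN range between it and the next TN library. These are the libraries that were highest for most tested members.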

How the results depend on the processing

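The number of members past the threshold was 0 in each comparison by edgeR. In MP against TN over both genotypes it was 1 with no filter, 2 with DESeq2 and 1 without both replicate 2 TN libraries. Without those libraries it was also 1 within WT, 1 within mCre and 6 in mCre against WT within MP. Within mCre it was 2 with DESeq2 and 0 to 3 when 1 library was left out (3 without the library labelled WT TN 1, 1 without WT TN 2). For the interaction it was 1 with DESeq2 and 0 to 3 when 1 library was left out (3 without WT TN 1). The sign changed for miR-3473f in mCre against WT within TN, to 0.20 without the library labelled WT TN 2 (-4.38 to 0.20 when 1 library was left out) and 0.69 without both replicate 2 TN libraries, and for miR-7084-5p, to 3.29 (-6.46 to 3.29) and 4.00; for miR-3470b the interaction was -1.65 without WT TN 1 (-1.65 to 5.61). It also changed for miR-3963 in MP against TN within mCre, to 1.99 without mCre TN 1 (-3.43 to 1.99). The cause was not tested. A minimum total of 20 counts gave 106 members and of 100 gave 34.

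Over all miRNAs, MP against TN over both genotypes called 9; it called 19 with no filter, 28 with DESeq2, 0 to 41 when 1 library was left out and 49 without both replicate 2 TN libraries. Within mCre the count of 0 became 24, 44, 0 to 56 and 30, within WT 6, 12, 0 to 6 and 14, and for the interaction 10, 16, 0 to 68 and 0. In mCre against WT it became 63 within MP without both replicate 2 TN libraries and 1 within TN with no filter. With the replicate block 2 miRNAs and 0 members were called in MP against TN over both genotypes, and 0 in the other comparisons. Differences between replicates 1 and 2 correlated between -0.32 and 0.41 over pairs of groups. Whether same-numbered libraries share a batch cannot be told from these values. Outside the replicate block the numbers are used only as names of libraries. In all, 28 members had under 100 counts, and how large a change this depth can detect in them is not reported here.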
